A study of Homo sapiens with 8 samples.

Results

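The genes described here build and regulate the actin cytoskeleton, together with the transcription factor SRF and its cofactors. They were chosen by gene symbol, 42 of the 61228 genes in the count table, and cover actins, filament crosslinkers, calponins and transgelins, non-muscle myosin chains, tropomyosins, focal adhesion proteins, SRF and its cofactors, proteins that bind actin monomers, and proteins that link actin to the membrane. Messenger RNA was sequenced from 8 libraries of the established cell line MDA-MB-231, which stems from a breast tumour without hormone receptors and is mesenchymal in character, with 2 libraries in each of 4 groups. Knockout cells in gels received Cas9 and guides that target the genes ETV1, ETV4 and ETV5, which form the PEA3 group of ETS transcription factors, and grew in collagen I. Control cells in gels received Cas9 with a control guide. Knockout cells in monolayers received the same targeting guides with Cas9 and grew on plastic. Control cells in monolayers have a label that names a control guide and no Cas9, which limits the knockout comparison in monolayers, the culture comparison in control cells and their interaction. All groups were nucleofected and grown in medium with 10% serum. The labels give 2 collagen concentrations without saying which library had which. Gels were digested with collagenase I and frozen before RNA extraction, while monolayers were taken up directly. Nothing says that replicate libraries stem from separate cultures or that the cells were clones. The p-values thus rest only on the spread between these libraries, in large part pooled over genes.

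Actin exists as a pool of monomers and as filaments. Profilin hands monomers to growing filaments, thymosins hold them in reserve, cofilin severs filaments, crosslinkers such as filamins and alpha-actinins join them, and myosin II pulls on them. The cofactors MRTFA and MRTFB bind actin monomers, and when the monomer pool shrinks they enter the nucleus and activate SRF, whose targets include actins and many of their binding proteins. Ternary complex factors of the ETS family, which ERK signalling activates, are the other class of SRF partners, and they act on immediate-early genes such as FOS and EGR1.

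SRF binds a DNA element called the CArG box, so the promoters of the members were searched for its consensus, which is the same on both strands and was allowed to overlap other motifs. RefSeq sequence (GRCh38.p14) from 250 bases before to 50 bases after the start was at hand for 38 of the 42 members, all but ACTB, FSCN1, TAGLN and MYL9. Where a gene had several such sequences, it counted if any of them held the box. A CArG box was present in 8 of these 38 genes (21.1%), against 438 of 27305 genes with such a sequence (1.6%) and 176 of 11102 tested genes (1.59%). The list was drawn up partly from known SRF targets, so these shares are a description. Boxes that differ from the consensus or lie outside this window were not searched, so members without a match may also be linked to SRF. The stretches that hold the box are shown because they mark members with a possible direct link to SRF. They read 5′ to 3′ on the strand of the gene, with the CArG box in capitals:
ACTG1 (chr17:81512864-81512913, minus strand, box 94 bases before the start): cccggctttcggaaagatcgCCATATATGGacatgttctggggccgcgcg
ACTN1 (chr14:68977708-68977757, minus strand, 171 bases): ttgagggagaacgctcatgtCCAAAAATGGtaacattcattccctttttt
FLNA (chrX:154374699-154374748, minus strand, 94 bases): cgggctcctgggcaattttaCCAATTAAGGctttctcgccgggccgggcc
CNN2 (chr19:1026499-1026548, plus strand, 89 bases): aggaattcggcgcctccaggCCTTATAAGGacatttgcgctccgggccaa
TPM4 (chr19:16067345-16067394, plus strand, 173 bases): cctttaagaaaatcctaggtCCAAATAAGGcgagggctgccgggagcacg
TES (chr7:116222703-116222740, plus strand, 242 bases): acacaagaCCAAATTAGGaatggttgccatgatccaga
FHL2 (chr2:105438585-105438634, minus strand, 101 bases): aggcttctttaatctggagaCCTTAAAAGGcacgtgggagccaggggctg
SRF (chr6:43171219-43171268, plus strand, boxes 30 and 10 bases before the start): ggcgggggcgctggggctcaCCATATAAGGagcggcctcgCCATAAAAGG
The promoter of SRF itself carried 2 boxes. Distances are to the RefSeq start used, which for TES lies inside the annotated gene (chr7, from base 116210493). A match of letters is not a bound site, and no binding was measured in this series.

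Library totals ran from 15824504 to 23896899 counts, and mitochondrially encoded genes took 2.65 to 4.47% of them. ETV1 was lower in knockout cells in gels (-36.5%, adjusted p = 3.1e-12) and in monolayers (-29%, adjusted p = 3.75e-09). ETV4 was also lower, by -32.8% in gels and -26.7% in monolayers (adjusted p = 3.62e-09 and 9.94e-07). ETV5 was not detectably different (1.6% in gels and 2.45% in monolayers, adjusted p = 0.808 and 0.718), and gene counts do not show whether its reading frame was edited. All 5 genes listed as defining for this line were expressed, with a summed 7716 to 9971 CPM (gene counts relative to the library total, scaled by TMM factors). Genes of luminal breast lines, listed as low or absent in this line, summed over 8 genes to 459.8 and 439.9 CPM in knockout gels, 762 and 720.3 CPM in control gels, 523 and 499 CPM in knockout monolayers, and 541 and 656 CPM in control monolayers. Their sum was thus lower in knockout than in control libraries of each culture, but the genes did not all move that way. Of the 8 genes 5 had enough counts to be tested. With the knockout 1 rose and 2 fell in gels, and 1 rose and 1 fell in monolayers. Of all tested genes 23.9% and 19.2% passed in these comparisons. The part of the luminal genes in the results was not tested. Fibroblast markers summed to 9.57 to 19.3 CPM, leukocyte markers to 2.74 to 8.23 CPM and endothelial markers to 7.18 to 12.5 CPM. Markers of smooth muscle and pericytes, which express ACTA2, CNN1 and TAGLN strongly, summed to 17.4 to 27.3 CPM over 10 genes, with MYOCD at 0 in all 8 libraries. In these bulk libraries fewer cells of a kind and less RNA per cell cannot be told apart.

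The members together took 2.99 and 3.04% of all counts in knockout gels, 3.02 and 2.92% in control gels, 2.87 and 2.82% in knockout monolayers, and 2.80 and 2.87% in control monolayers. Their levels per kilobase of exon spanned more than 4 orders of magnitude. The highest mean levels over the 8 libraries were 2669 CPM per kb for TMSB10, 2297 for ACTB, 1479 for ACTG1, 745 for TMSB4X and 720.5 for PFN1. These are the cytoplasmic actins and the proteins that bind their monomers. TPM4 followed at 473 CPM per kb, FLNA at 377, CFL1 at 375 and MSN at 350.0. At the low end stood MRTFA at 3.99, TAGLN at 3.16, MRTFB at 1.73, ACTA2 at 1.5 and CNN1 at 0.105 CPM per kb. CNN1, the calponin of smooth muscle, had 0 and 1 counts in knockout gels, 6 and 4 in control gels, 3 and 2 in knockout monolayers, and 11 and 5 in control monolayers. It was the only member that the filter on low counts removed. The count of 0 allows up to 3 counts, or 0.164 CPM in that library. The other 41 members were tested, and 36 of them averaged at least 50 CPM.

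**Figure D1:**
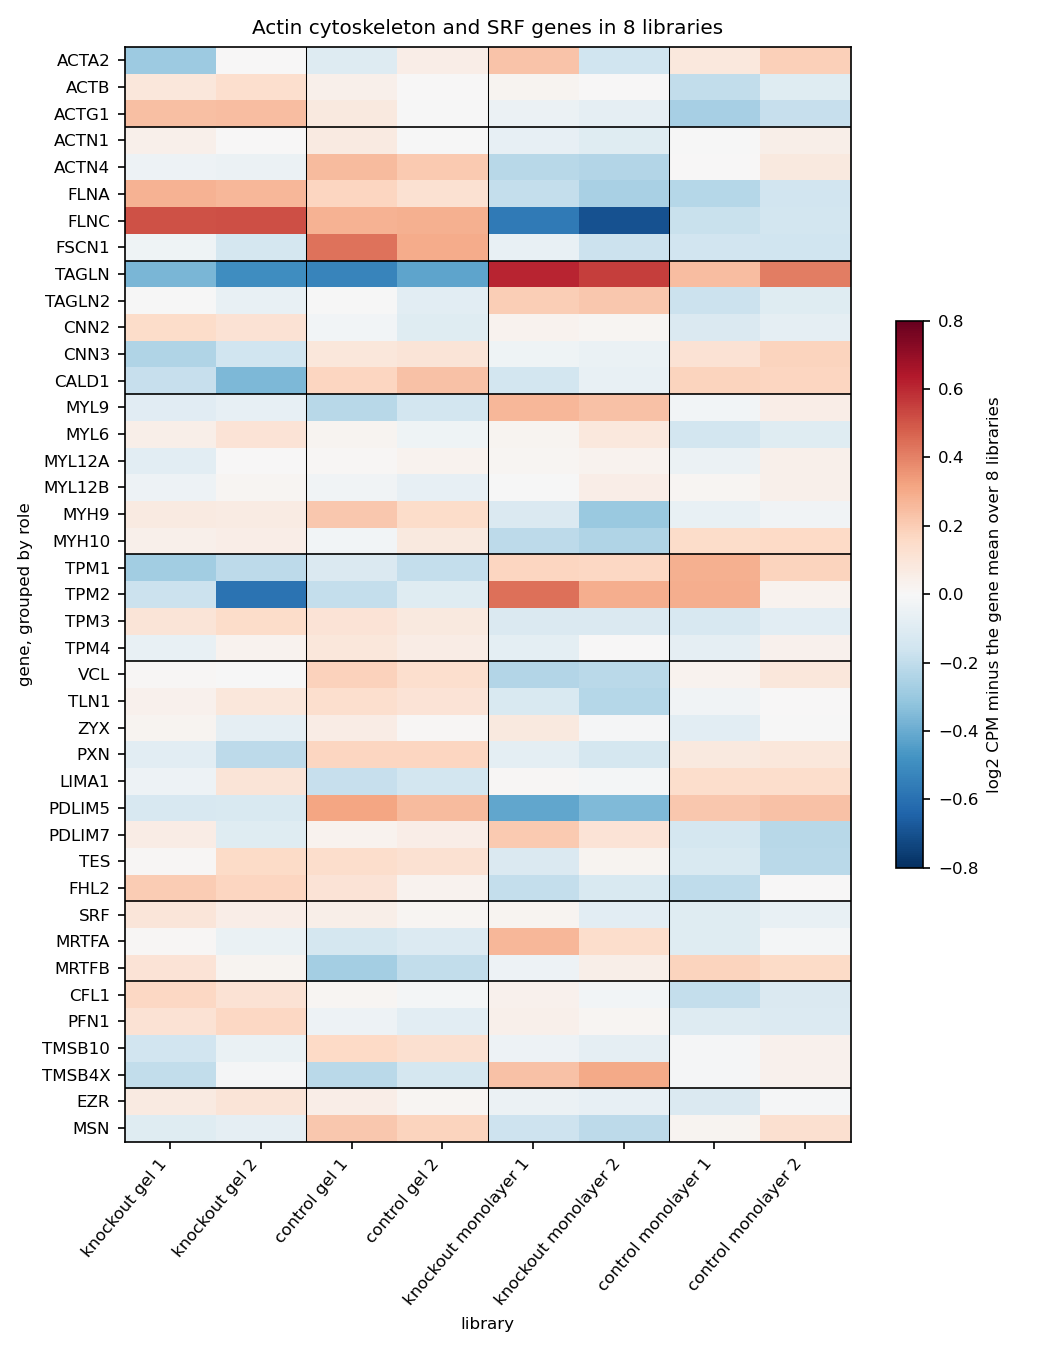
Log2 CPM of the 41 tested members (rows, grouped by role) in the 8 libraries (columns), each minus the gene's mean over the 8 libraries. FLNC is high in gels and lowest in knockout monolayers, TAGLN and TPM2 are low in gels, and most other genes stay closer to their mean.

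Differences between groups are given as log2 fold changes with the SE of the edgeR fit. A gene is said to have risen or fallen where its p-value, corrected by the Benjamini-Hochberg method across the 15568 genes tested, was under 0.05.

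ACTB and ACTG1 encode the beta and gamma actins of non-muscle cells, and ACTA2 the alpha actin of smooth muscle. ACTG1 had 4142 and 4149.5 CPM in knockout gels, 3693 and 3500.4 CPM in control gels, 3393 and 3338 CPM in knockout monolayers, and 2910.3 and 3087 CPM in control monolayers. The 4 groups lay apart, with knockout gels highest and control monolayers lowest. ACTG1 rose with the knockout by 0.20 ± 0.05 in gels (adjusted p = 0.000825) and by 0.17 ± 0.05 in monolayers (adjusted p = 0.00747). It also rose in gels against monolayers, by 0.30 ± 0.05 in knockout cells (adjusted p = 2.41e-06) and by 0.26 ± 0.05 in control cells (adjusted p = 3.85e-05). ACTB had 4869 and 4999.9 CPM in knockout gels, 4690.4 and 4572 CPM in control gels, 4642 and 4564 CPM in knockout monolayers, and 3989 and 4262 CPM in control monolayers. Control monolayers lay below all other libraries, and ACTB rose against them with the knockout (0.16 ± 0.04, adjusted p = 0.0108) and with the gel (0.17 ± 0.04, adjusted p = 0.0053). Its knockout difference in gels was 0.09 (95% interval 0.00 to 0.18, adjusted p = 0.141). The ratio of ACTB to ACTG1 counts, compared only between libraries, was 1.18 and 1.20 in knockout gels, 1.27 and 1.31 in control gels, 1.37 and 1.37 in knockout monolayers, and 1.37 and 1.38 in control monolayers. Gels thus held a lower ratio than monolayers, and knockout gels the lowest. ACTA2 had 1.64 and 2.02 CPM in knockout gels, 1.87 and 2.08 CPM in control gels, 2.36 and 1.80 CPM in knockout monolayers, and 2.13 and 2.30 CPM in control monolayers. These values rest on 30 to 53 counts a library. No comparison of ACTA2 passed, and the 95% interval of the knockout difference in monolayers, -0.62 to 0.43, shows how little this depth can tell.

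The filament crosslinkers are the filamins FLNA and FLNC, the alpha-actinins ACTN1 and ACTN4, and fascin (FSCN1), which bundles filaments in filopodia. FLNC (chromosome 7, 128830377 to 128859274) had 402 and 403 CPM in knockout gels, 343 and 343 CPM in control gels, 191 and 174 CPM in knockout monolayers, and 249.8 and 255 CPM in control monolayers. Gels were above monolayers, and knockout cells were above control cells in gels and under them in monolayers. FLNC is known mainly from striated muscle, where it sits at the Z-disc. FLNA, the widespread filamin, had 3849 and 3815 CPM in knockout gels, 3584 and 3452 CPM in control gels, 2779 and 2650.4 CPM in knockout monolayers, and 2708 and 2850.0 CPM in control monolayers. FSCN1 had 99.8 and 92.7 CPM in knockout gels, 138 and 126 CPM in control gels, 98.0 and 90.6 CPM in knockout monolayers, and 91.9 and 91.5 CPM in control monolayers, so only control gels stood out. ACTN4 had 1312 and 1309 CPM in knockout gels, 1611 and 1565 CPM in control gels, 1159.5 and 1151 CPM in knockout monolayers, and 1354 and 1426 CPM in control monolayers. Knockout libraries were below control libraries in both cultures. ACTN1, its close relative, passed in no comparison, with 559.5 to 628 CPM over all libraries. The ratio of ACTN1 to ACTN4 counts was 0.469 and 0.458 in knockout gels, 0.390 and 0.381 in control gels, 0.491 and 0.486 in knockout monolayers, and 0.441 and 0.432 in control monolayers.

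Transgelins, calponins and caldesmon bind along actin filaments. TAGLN, the smooth muscle transgelin, had 5.59 and 5.10 CPM in knockout gels, 4.99 and 5.38 CPM in control gels, 11.0 and 10.6 CPM in knockout monolayers, and 8.57 and 9.56 CPM in control monolayers. All gels were below all monolayers. TAGLN2, the form of non-muscle cells, had 408 and 391 CPM in knockout gels, 408 and 385 CPM in control gels, 468 and 474 CPM in knockout monolayers, and 362 and 381 CPM in control monolayers. Knockout monolayers alone were high. CALD1, the caldesmon gene, had 75.4 and 66.9 CPM in knockout gels, 96.4 and 101 CPM in control gels, 77.6 and 82.2 CPM in knockout monolayers, and 96.9 and 96.7 CPM in control monolayers. CNN3, the acidic calponin, had 264 and 280.1 CPM in knockout gels, 333 and 336 CPM in control gels, 305 and 302 CPM in knockout monolayers, and 338 and 354 CPM in control monolayers. Knockout libraries held less CALD1 and CNN3 than control libraries in both cultures. CNN2, the neutral calponin, had 219.7 and 215 CPM in knockout gels, 196 and 186 CPM in control gels, 203 and 201 CPM in knockout monolayers, and 183 and 189 CPM in control monolayers.

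Myosin II is built from heavy chains (MYH9 and MYH10 in non-muscle cells), essential light chains (MYL6) and regulatory light chains (MYL9, MYL12A and MYL12B). MYH9 had 1396 and 1390.2 CPM in knockout gels, 1546 and 1475 CPM in control gels, 1225 and 1082 CPM in knockout monolayers, and 1274 and 1304 CPM in control monolayers. MYH10 had 93.0 and 94.2 CPM in knockout gels, 89.2 and 95.7 CPM in control gels, 78.3 and 76.6 CPM in knockout monolayers, and 100.1 and 101 CPM in control monolayers, so knockout monolayers were lowest. MYL9 had 83.2 and 84.8 CPM in knockout gels, 75.8 and 80.0 CPM in control gels, 106 and 104 CPM in knockout monolayers, and 87.3 and 91.8 CPM in control monolayers. Knockout monolayers held the most MYL9 and control gels the least. MYL6 ranged from 510.2 to 610.2 CPM. MYL12A and MYL12B, neighbouring genes of near-identical sequence whose reads the counting could mix, ranged from 223 to 244 and from 364 to 396 CPM, and passed in no comparison.

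Tropomyosins wind along filaments and set which other proteins can bind. TPM1, which encodes both long and short isoforms that gene counts do not separate, had 63.8 and 67 CPM in knockout gels, 71.5 and 67.9 CPM in control gels, 87.3 and 86.7 CPM in knockout monolayers, and 94.3 and 87.5 CPM in control monolayers. TPM2 had 33.8 and 25.2 CPM in knockout gels, 33.3 and 35.6 CPM in control gels, 51.6 and 46.5 CPM in knockout monolayers, and 46.6 and 38.7 CPM in control monolayers. Both were lower in every gel than in every monolayer. TPM3 went the other way, with 755 and 781 CPM in knockout gels, 761 and 743 CPM in control gels, 649.9 and 651 CPM in knockout monolayers, and 645 and 663 CPM in control monolayers. TPM4, the most abundant per kilobase, ranged from 1526 to 1720.5 CPM and passed in no comparison. None of the 4 tropomyosins passed in either knockout comparison by edgeR or DESeq2, and none had an unadjusted p under 0.05.

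Focal adhesions tie filaments to integrins through talin (TLN1), vinculin (VCL) and paxillin (PXN), with LIM-domain proteins along the filaments. PDLIM5 (chromosome 4, 94451857 to 94668227), a PDZ and LIM protein that binds alpha-actinin, had 187 and 188 CPM in knockout gels, 254 and 243 CPM in control gels, 153 and 159.8 CPM in knockout monolayers, and 237 and 239.6 CPM in control monolayers. All knockout libraries were below all control libraries. PDLIM7, a relative, had 197 and 177 CPM in knockout gels, 193 and 197 CPM in control gels, 219 and 205 CPM in knockout monolayers, and 172 and 162 CPM in control monolayers. PXN had 445 and 407 CPM in knockout gels, 530.5 and 531 CPM in control gels, 445 and 426 CPM in knockout monolayers, and 497 and 501 CPM in control monolayers. Paxillin, a scaffold of the adhesion, was also lower in every knockout library. VCL had 469 and 463 CPM in knockout gels, 528 and 511 CPM in control gels, 396 and 401 CPM in knockout monolayers, and 475 and 495 CPM in control monolayers. LIMA1, which stabilises filaments against depolymerisation, had 152 and 168 CPM in knockout gels, 138 and 141 CPM in control gels, 157 and 155 CPM in knockout monolayers, and 173 and 173 CPM in control monolayers. Control cells thus held both the lowest LIMA1 levels, in gels, and the highest, in monolayers. TES had 78.7 and 87.1 CPM in knockout gels, 86.4 and 85.2 CPM in control gels, 72.3 and 79.5 CPM in knockout monolayers, and 72.0 and 67.4 CPM in control monolayers. TLN1 ranged from 562 to 722 CPM, ZYX from 151 to 168 CPM, with no comparison passed, and FHL2 from 44.3 to 58.9 CPM.

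SRF had 189 and 184 CPM in knockout gels, 183 and 179 CPM in control gels, 179.8 and 167 CPM in knockout monolayers, and 166 and 170.3 CPM in control monolayers, and passed in no comparison. Its knockout differences were 0.04 in gels (95% interval -0.06 to 0.14, adjusted p = 0.572) and 0.05 in monolayers (-0.05 to 0.15, adjusted p = 0.565). MRTFA had 23.8 and 22.8 CPM in knockout gels, 21.5 and 21.9 CPM in control gels, 28.5 and 26.1 CPM in knockout monolayers, and 22.1 and 23.5 CPM in control monolayers. Knockout monolayers held the highest level of MRTFA. MRTFB had 19.1 and 18 CPM in knockout gels, 14.6 and 15.4 CPM in control gels, 17.2 and 18.3 CPM in knockout monolayers, and 20 and 19.7 CPM in control monolayers, with control gels lowest. Both cofactors are regulated chiefly by where in the cell they are, which transcript counts do not show.

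Of the proteins that bind monomers, PFN1 (profilin) had 1509.8 and 1564 CPM in knockout gels, 1355 and 1315 CPM in control gels, 1436 and 1409.5 CPM in knockout monolayers, and 1299 and 1294 CPM in control monolayers. CFL1 (cofilin) had 1020.1 and 984 CPM in knockout gels, 919 and 899 CPM in control gels, 929 and 896 CPM in knockout monolayers, and 797 and 839 CPM in control monolayers. Knockout libraries held more of both than control libraries of the same culture. TMSB4X, thymosin beta 4, had 1098 and 1255 CPM in knockout gels, 1088 and 1142 CPM in control gels, 1485 and 1558 CPM in knockout monolayers, and 1250.4 and 1289 CPM in control monolayers. TMSB10, thymosin beta 10, had 1188 and 1274 CPM in knockout gels, 1478 and 1441 CPM in control gels, 1286 and 1258 CPM in knockout monolayers, and 1312 and 1352 CPM in control monolayers. The ratio of TMSB10 to TMSB4X counts was 1.08 and 1.02 in knockout gels, 1.36 and 1.26 in control gels, 0.866 and 0.808 in knockout monolayers, and 1.05 and 1.05 in control monolayers. The ratio was lower in knockout than in control libraries of each culture. Of the membrane linkers, MSN (moesin) had 1285 and 1305 CPM in knockout gels, 1595 and 1551 CPM in control gels, 1222 and 1189 CPM in knockout monolayers, and 1395 and 1500.3 CPM in control monolayers. EZR (ezrin) ranged from 432 to 502 CPM.

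Both labels name Cas9 in the comparison of knockout with control cells in gels. It asks which of these genes differed in collagen where the PEA3 genes were targeted. CALD1 fell by 0.47 ± 0.06, FSCN1 by 0.46 ± 0.06 and PDLIM5 by 0.41 ± 0.05 on the log2 scale (adjusted p = 2.1e-07, 1.58e-07 and 2.55e-08). Also lower were PXN (-0.32), CNN3 (-0.30), MSN (-0.28), ACTN4 (-0.28), TMSB10 (-0.25) and VCL (-0.16). MRTFB rose by 0.30 ± 0.10 (adjusted p = 0.0202), FLNC by 0.23 ± 0.05 (adjusted p = 0.00028), PFN1 by 0.20 ± 0.04 (adjusted p = 0.000677), LIMA1 by 0.20 ± 0.05 (adjusted p = 0.00399) and CNN2 by 0.19 ± 0.05 (adjusted p = 0.00349), as did ACTG1, CFL1 (0.14) and FLNA (0.12). In all, 8 of 41 tested members rose and 9 fell, against 23.9% of all tested genes that passed, 11.5% higher and 12.4% lower. The median log2 change was 0.01 over the members and -0.00 over all tested genes. Genes with high counts pass more easily, and among genes with a mean of at least 50 CPM 44.4% of 36 members passed, against 37.1% of 4702 genes. The knockout and control libraries did not overlap for 29 members, against 61.7% of all tested genes. By role, 3 of 9 focal adhesion genes fell (VCL, PXN and PDLIM5) and 1 rose (LIMA1), and no myosin chain, of 6 tested, passed by edgeR or DESeq2, while MYH9 alone had an unadjusted p under 0.05. The calls of CNN3, TMSB10, PDLIM5, FSCN1, FLNC, CALD1, PXN, PFN1, ACTN4 and MSN held in all 17 other settings.

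Some calls in gels were lost when 1 library was left out. Such a fit has 1 library in a group and detects less, so a lost call need not rest on that library. Over the 17 other settings CFL1 ranged from 0.13 to 0.16, MRTFB from 0.27 to 0.34, LIMA1 from 0.12 to 0.29 and FLNA from 0.10 to 0.28. Without control gel 1, VCL, CFL1, LIMA1, MRTFB and FLNA did not pass (adjusted p = 0.0798 to 0.167), and 4 members rose in place of 8. Without control gel 2, CFL1, MRTFB, ACTG1, CNN2 and FLNA did not pass (adjusted p = 0.0625 to 0.345), and 3 members rose. Without knockout gel 1, VCL, CFL1, MRTFB and FLNA did not pass (adjusted p = 0.0552 to 0.0904). Without knockout gel 2, VCL, CFL1, LIMA1 and FLNA did not pass (adjusted p = 0.058 to 0.202), and 5 members rose. FLNA also did not pass without knockout monolayer 2 (adjusted p = 0.101), with upper-quartile factors (0.0838) or without the filter on low counts (0.0555), so its call held in 10 of 17 other settings. MRTFB did not pass in DESeq2 (adjusted p = 0.105).

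**Figure D2:**
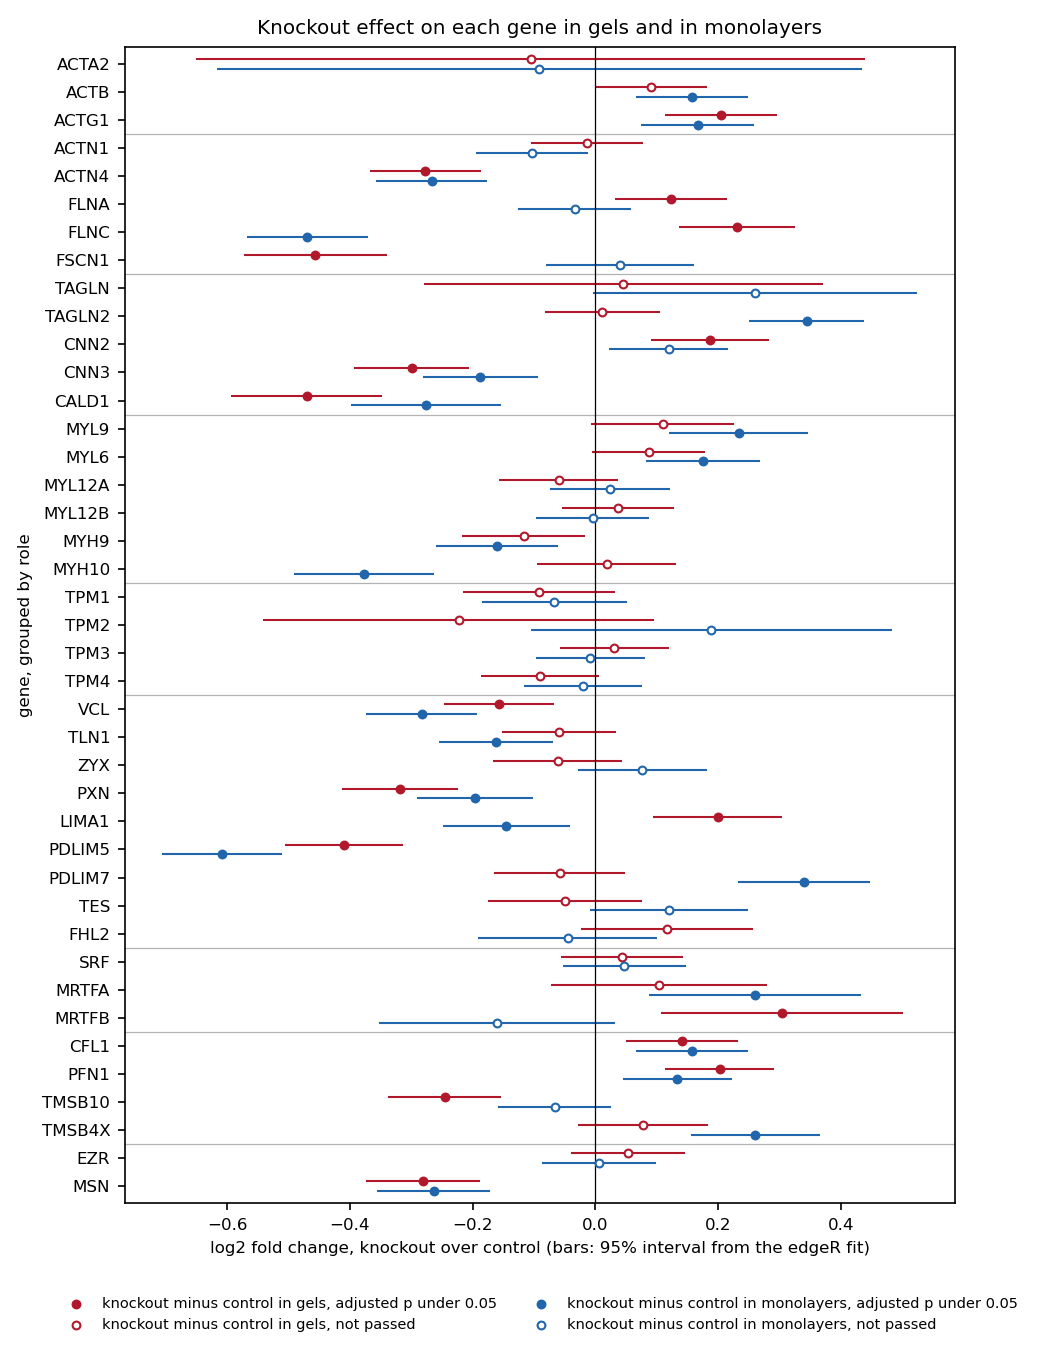
Log2 fold change of knockout over control cells for each tested member, in gels (red) and monolayers (blue), with 95% intervals from the edgeR fit and filled points for an adjusted p under 0.05. ACTN4, CNN3, CALD1, VCL, PXN, PDLIM5 and MSN lie left of 0 in both cultures, and FLNC and LIMA1 lie on opposite sides.

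In monolayers, PDLIM5 fell most with the knockout, by 0.61 ± 0.05 on the log2 scale or -34.4% (adjusted p = 5.71e-12), followed by FLNC (-0.47 ± 0.05, adjusted p = 3.12e-09) and MYH10 (-0.38 ± 0.06, adjusted p = 4.57e-06). VCL (-0.28), CALD1 (-0.28), ACTN4 (-0.27), MSN (-0.26), PXN (-0.20), CNN3 (-0.19), TLN1 (-0.16), MYH9 (-0.16) and LIMA1 (-0.15) were also lower. TAGLN2 rose by 0.34 ± 0.05 (adjusted p = 6.48e-07), PDLIM7 by 0.34 ± 0.05 (adjusted p = 9.44e-06), TMSB4X by 0.26 ± 0.05 (adjusted p = 0.000411), MRTFA by 0.26 ± 0.09 (adjusted p = 0.027) and MYL9 by 0.23 ± 0.06 (adjusted p = 0.00234). MYL6 (0.18), ACTG1 (0.17), CFL1 (0.16), ACTB (0.16) and PFN1 (0.13) were the other members that rose. In all, 10 of 41 tested members rose and 12 fell, against 19.2% of all tested genes that passed, 9.6% in each direction. The median log2 change was -0.01 over the members and 0.01 over all tested genes. Among genes with a mean of at least 50 CPM, 58.3% of the 36 members passed, against 29.6% of 4702 genes. The groups did not overlap for 29 members, against 56.9% of all tested genes. Of the 9 focal adhesion genes 5 fell (VCL, TLN1, PXN, LIMA1 and PDLIM5) and 1 rose, and of the 4 monomer-binding genes 3 rose (CFL1, PFN1 and TMSB4X). In both cultures 3 members rose (ACTG1, CFL1 and PFN1) and 7 fell (ACTN4, CNN3, CALD1, VCL, PXN, PDLIM5 and MSN), while 14 passed in neither. The share of all tested genes that passed in both was not computed, so these counts only describe the members.

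The knockout difference in monolayers moved with exon length. Over the 41 members, log2 fold change and exon length had a Spearman correlation of -0.62, against -0.26 over 12559 protein-coding tested genes, and in gels 0.01, against -0.08. With GC content of the exons the values were 0.42 and 0.16 in monolayers, and 0.16 and -0.13 in gels. Genes within a library share its preparation, so these are descriptions. With offsets for length and GC content, 5 members rose and 10 fell in monolayers. PDLIM5 (-0.53), FLNC (-0.40), MYH10 (-0.29), TAGLN2 (0.28) and PDLIM7 (0.26) still passed, while ACTB, ACTG1, CFL1, PFN1, MYL6, TLN1, LIMA1 and MYH9 did not (adjusted p = 0.0506 to 0.348).

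**Figure D3:**
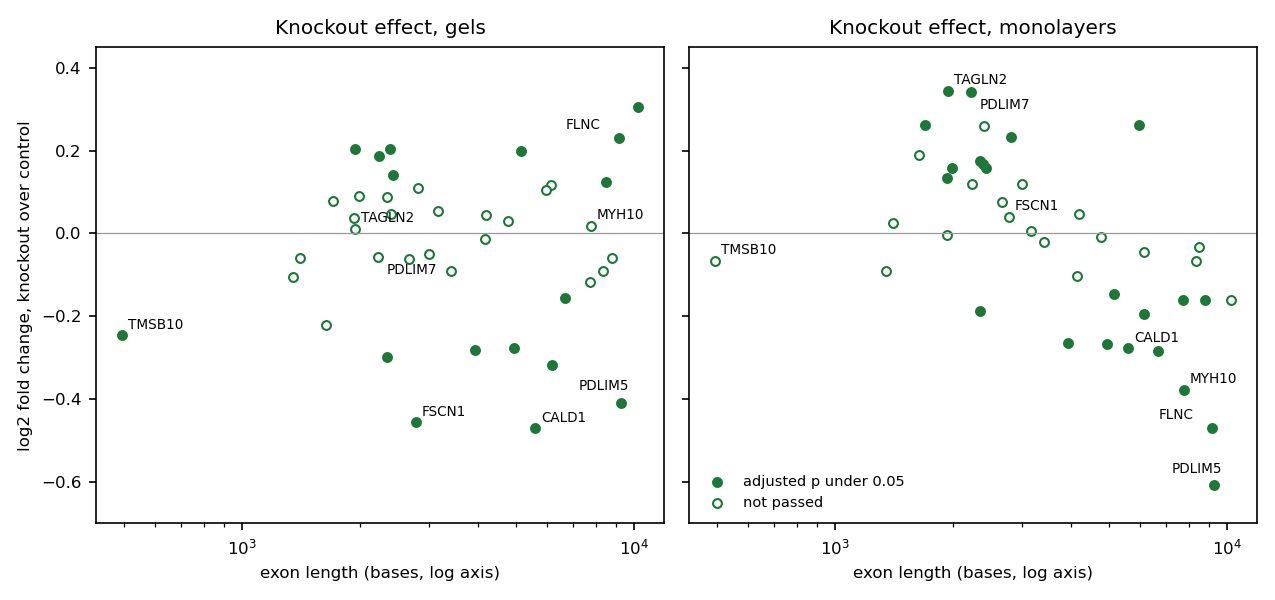
Log2 fold change of knockout over control cells against exon length in bases (log axis) for the 41 tested members, in gels (left) and monolayers (right), filled where the adjusted p was under 0.05. In monolayers PDLIM5, FLNC and MYH10, among the longest, lie lowest (Spearman correlation -0.62), and in gels no such slope appears (Spearman correlation 0.01).

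The calls of CNN3, TAGLN2, PDLIM5, PDLIM7, FLNC, CALD1, VCL, MYH10, ACTN4, TMSB4X and MSN in monolayers held in all 17 other settings. Without control monolayer 1, ACTB, CFL1, LIMA1, MYL6, PFN1, ACTG1, MYL9 and MRTFA did not pass (adjusted p = 0.0843 to 0.267), and 3 members rose in place of 10. Without control monolayer 2, TLN1, LIMA1, PFN1 and MYH9 did not pass (adjusted p = 0.0504 to 0.11). Without knockout monolayer 1, ACTB, CFL1, LIMA1, PFN1, ACTG1 and MRTFA did not pass (adjusted p = 0.0774 to 0.279), and 5 members rose. Without knockout monolayer 2, ACTB, TLN1, LIMA1, MYL6, PXN, PFN1, ACTG1 and MYH9 did not pass (adjusted p = 0.0578 to 0.518), and 6 rose. Without control gel 1 or control gel 2, LIMA1 and PFN1 did not pass (adjusted p = 0.0549 to 0.0752). In DESeq2, LIMA1 and MRTFA did not pass (adjusted p = 0.11 and 0.153). Without the filter on low counts, PFN1 and MRTFA did not (adjusted p = 0.102 and 0.0613), and with only the groups compared in the fit, ACTB, CFL1 and PFN1 did not (adjusted p = 0.0543 to 0.114).

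In knockout cells grown in gels against monolayers, FLNC rose by 1.14 ± 0.05, or 121% (adjusted p = 6.82e-20), and FLNA by 0.50 ± 0.05, or 41.2% (adjusted p = 1.12e-10). FHL2 rose by 0.34 ± 0.07 (adjusted p = 0.000235), ACTG1 by 0.30, MYH9 by 0.27 ± 0.05 (adjusted p = 4.19e-05), MYH10 by 0.27 ± 0.06 (adjusted p = 0.000235), PDLIM5 by 0.26, TPM3 by 0.24 ± 0.04 (adjusted p = 4.74e-05), TLN1 by 0.24, VCL by 0.23 and ACTN4 by 0.18. EZR, CFL1 (0.14 each) and PFN1 (0.11) complete the members that rose. TAGLN fell by 1.01 ± 0.14, or -50.4% (adjusted p = 9.31e-07), TPM2 by 0.73 ± 0.14 (adjusted p = 0.00252), TPM1 by 0.41 ± 0.06 (adjusted p = 1.61e-06), TMSB4X by 0.37 ± 0.05 (adjusted p = 1.34e-06), MYL9 by 0.32 ± 0.06 (adjusted p = 2.23e-05) and TAGLN2 by 0.24 ± 0.05 (adjusted p = 0.000102). MRTFA (-0.23), PDLIM7 (-0.18), CALD1 (-0.17) and CNN3 (-0.16) were lower too. In all, 14 of 41 tested members rose and 10 fell, against 38% of all tested genes that passed, 20.1% higher and 17.9% lower. The median log2 change was 0.06 over the members and -0.01 over all tested genes. Among genes with a mean of at least 50 CPM, 58.3% of the members and 54% of all passed. The groups did not overlap for 30 members, against 67.6% of all tested genes. By role, 4 of 5 tested genes of the calponin and transgelin group fell, and 3 of 5 crosslinkers rose. With library size as the only scaling 11 members rose and 12 fell, with upper-quartile factors 11 rose and 10 fell, and with offsets for length and GC content 20 rose and 8 fell. The difference also moved with exon length over the members (Spearman correlation 0.53, against -0.01 over protein-coding tested genes).

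In control cells FSCN1 rose most in gels, by 0.53 ± 0.06, or 44% (adjusted p = 1.23e-08), then FLNC by 0.44 ± 0.05 (adjusted p = 5.89e-09), FLNA by 0.34 ± 0.05 (adjusted p = 5.39e-07) and TES by 0.30 ± 0.06 (adjusted p = 0.00047). ACTG1 (0.26), MYH9 (0.23), PDLIM7 (0.22), TPM3 (0.20), ACTN4 (0.19), ACTB (0.17), CFL1 (0.15), TLN1 (0.13), TMSB10 (0.13) and MSN (0.12) also rose. TAGLN fell by 0.80 ± 0.14 (adjusted p = 7.81e-05), MRTFB by 0.40 ± 0.10 (adjusted p = 0.00157), TPM1 by 0.39 ± 0.06 (adjusted p = 6.12e-06), LIMA1 by 0.31 ± 0.05 (adjusted p = 2.34e-05), MYL9 by 0.20 ± 0.06 (adjusted p = 0.00772) and TMSB4X by 0.19 ± 0.05 (adjusted p = 0.00691). In all, 14 of 41 tested members rose and 6 fell, against 26.7% of all tested genes that passed, 16% higher and 10.7% lower. The median log2 change was 0.09 over the members and 0.01 over all tested genes. With library size as the only scaling 8 rose and 9 fell, and with upper-quartile factors 10 rose and 8 fell. Among genes with a mean of at least 50 CPM, 50% of the members and 40.3% of all passed. The groups did not overlap for 37 members, against 64.4% of all tested genes. Of the crosslinkers 4 of 5 rose. In both kinds of cells 8 members rose in gels and 4 fell (TAGLN, TPM1, MYL9 and TMSB4X), 10 passed in neither, and PDLIM7 went in opposite directions. Here too the share of all tested genes that passed in both was not computed.

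**Figure D4:**
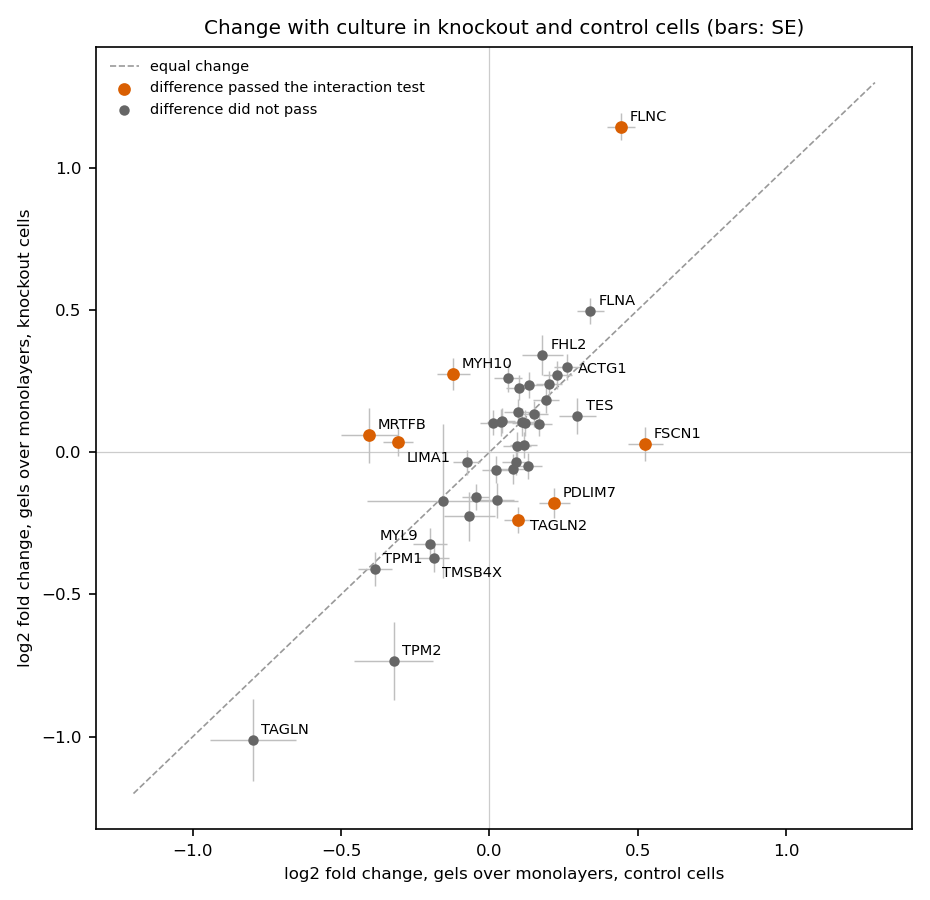
Log2 fold change of gels over monolayers in knockout cells (vertical axis) against control cells (horizontal axis) for the 41 tested members, with SE bars and a dashed line of equal change. FLNC lies far above the line at 1.14 and 0.44, FSCN1 far to its right at 0.03 and 0.53, and TAGLN is lowest in both at -1.01 and -0.80.

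The gels differed from the monolayers in a further way. A list of 13 genes that respond to tissue dissociation, such as FOS, JUNB and EGR1, summed to 3339 and 3164 CPM in knockout gels, 3173 and 3273 CPM in control gels, 1368 and 1315 CPM in knockout monolayers, and 1230 and 1235 CPM in control monolayers. Of the 13 genes, 9 rose and 2 fell in gels of knockout cells, and 10 rose and 1 fell in gels of control cells. Among all tested genes 38% and 26.7% passed in these comparisons. Only gels were digested with collagenase, so the digestion and the gel cannot be told apart.

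Some culture calls were lost when 1 library was left out, a fit that has 1 library in a group and detects less. In knockout cells without knockout gel 1, CNN3, CFL1 and MRTFA did not pass (adjusted p = 0.0688 to 0.177), and without knockout gel 2, PDLIM7, EZR, CALD1, PFN1 and MRTFA did not (0.123 to 0.393 adjusted p). Without knockout monolayer 1, CNN3, PDLIM7, PFN1 and MRTFA did not pass (adjusted p = 0.0764 to 0.294), and without knockout monolayer 2, EZR, CALD1, CFL1 and PFN1 did not (0.108 to 0.269 adjusted p). Without control gel 1 or 2, PFN1 and MRTFA did not pass (adjusted p = 0.0509 to 0.0711). In control cells without control gel 1, TMSB10, ACTB, TLN1, CFL1, MYL9, TMSB4X and MSN did not pass (adjusted p = 0.102 to 0.288), and 9 members rose in place of 14. Without control monolayer 1, TMSB10, ACTB, TLN1, CFL1 and MSN did not pass (adjusted p = 0.132 to 0.531), and again 9 rose. Without control gel 2, knockout gel 1 or knockout monolayer 1, TMSB10, TLN1 and MSN did not pass (adjusted p = 0.0502 to 0.129). Without control monolayer 2, MYL9 and TMSB4X did not pass (adjusted p = 0.0836 and 0.0755), and MSN did not pass without knockout gel 2 or knockout monolayer 2 (adjusted p = 0.0518 and 0.0717).

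Other culture calls depended on the scaling or the model. In knockout cells EZR, CFL1 and PFN1 did not pass with upper-quartile factors (adjusted p = 0.13 to 0.314) or with library size alone (adjusted p = 0.169 to 0.412), and PFN1 did not with RLE factors (adjusted p = 0.0506). CALD1 and MRTFA did not pass in DESeq2 (adjusted p = 0.0998 and 0.173), with only the groups compared (0.0562 and 0.0506) or, together with PFN1, without the filter (0.0578 to 0.0862). PDLIM7 and MRTFA did not pass with length and GC offsets (adjusted p = 0.132 and 0.248). In control cells TMSB10, TLN1 and MSN did not pass with RLE factors, upper-quartile factors, library size alone, no filter or only the groups compared (adjusted p = 0.0516 to 0.544), and TLN1 and MSN did not with length and GC offsets (adjusted p = 0.0635 and 0.0539). These calls held in 7 of 17 other settings for TMSB10, 6 for TLN1 and 4 for MSN. CFL1 did not pass with upper-quartile factors (adjusted p = 0.0864), ACTB with only the groups compared (0.056), or CFL1, ACTB and PDLIM7 with library size alone (0.06 to 0.233).

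The interaction asks whether the knockout effect in gels differed from that in monolayers, and 4 of 41 tested members had a higher and 3 a lower effect in gels, against 6.6% of all tested genes that passed, 2.67% higher and 3.94% lower. The median difference was -0.02 over the members and over all tested genes. Among genes with a mean of at least 50 CPM, 16.7% of the members and 13.4% of all passed. FLNC differed by 0.70 ± 0.07 (adjusted p = 4.18e-09), with an effect of 0.23 in gels and -0.47 in monolayers. FSCN1 differed by -0.50 ± 0.08 (adjusted p = 0.000111), with -0.46 in gels and 0.04 in monolayers. PDLIM7 (-0.40 ± 0.07, adjusted p = 0.000556) and TAGLN2 (-0.33 ± 0.07, adjusted p = 0.000945) rose with the knockout in monolayers, while their effects in gels were -0.06 and 0.01. MYH10 (0.40 ± 0.08, adjusted p = 0.00112) fell in monolayers, with 0.02 in gels. LIMA1 (0.34 ± 0.07, adjusted p = 0.00201) fell in monolayers and rose in gels. These genes lie on different chromosomes or far apart, FSCN1 on chromosome 7 (5592823 to 5606655), PDLIM7 on 5 (177483394 to 177497606), TAGLN2 on 1 (159918107 to 159925732), MYH10 on 17 (8474205 to 8630761) and LIMA1 on 12 (50175788 to 50283546) of GRCh38. MRTFB (0.46 ± 0.14, adjusted p = 0.0303) was the least secure. It did not pass without control gel 1, control gel 2, knockout gel 1, knockout gel 2, control monolayer 1, control monolayer 2 or knockout monolayer 1 (adjusted p = 0.0501 to 0.168), in DESeq2 (adjusted p = 0.142), or with length and GC offsets (adjusted p = 0.0988). The other 6 passed in every setting tried. The interaction also moved with exon length, with a Spearman correlation of 0.58 over the members and 0.15 over protein-coding tested genes.

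**Figure D5:**
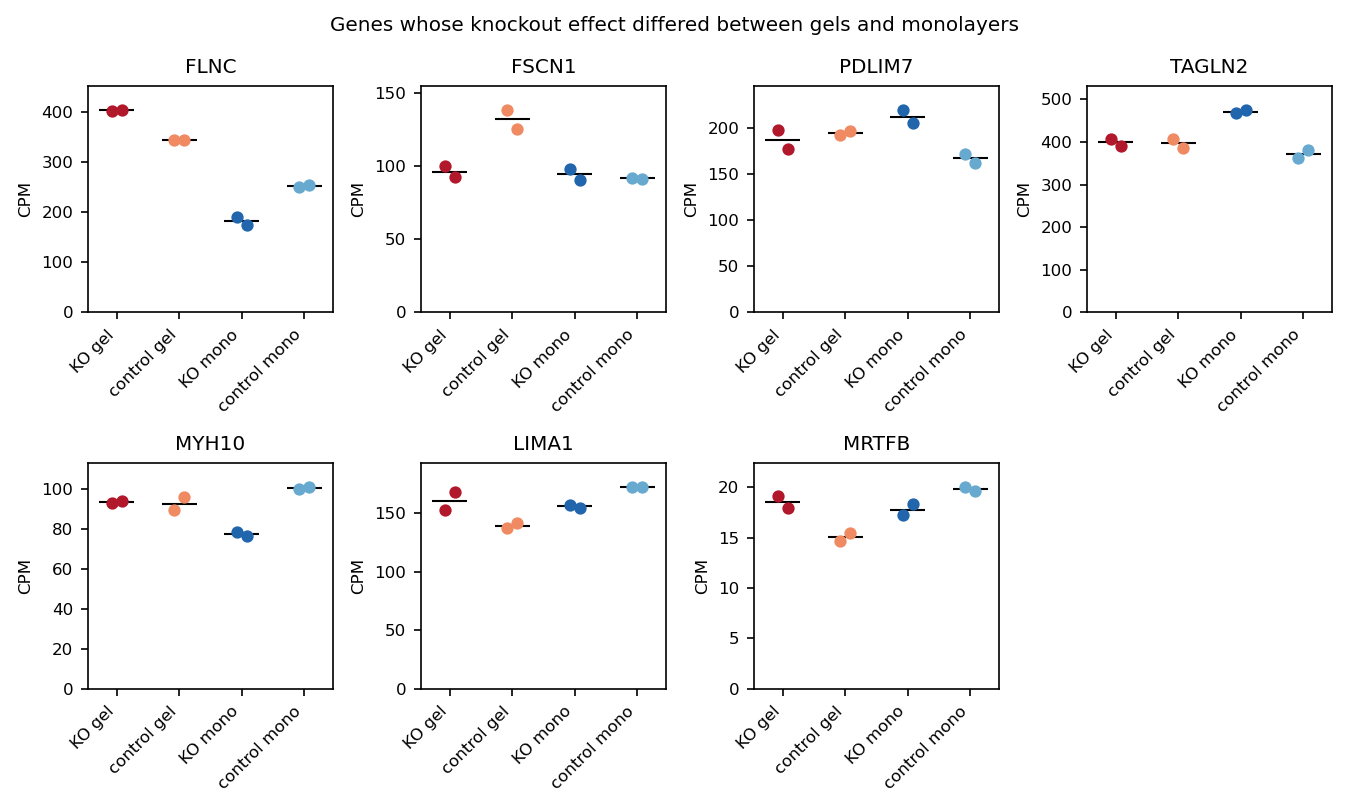
CPM of the 7 members whose knockout effect differed between cultures, with 1 point per library and a line at the mean of each group (KO, knockout; mono, monolayer). FLNC in knockout cells runs between 402 and 403 CPM in gels and between 174 and 191 CPM in monolayers, and FSCN1 is high in control gels alone.

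Other genes of the same machinery were examined as lists, which like the members were chosen with earlier results known. Of all tested genes 23.9% passed for the knockout in gels and 19.2% for the knockout in monolayers. For gels against monolayers 38% passed in knockout cells and 26.7% in control cells, and 6.6% passed in the interaction. Among genes with a mean of at least 50 CPM these shares were 37.1, 29.6, 54, 40.3 and 13.4%, in the same order. The lists were not split by level, so their shares also depend on how abundant their genes are. Of 13 tested MRTF-SRF targets outside the members, 2 rose and 7 fell with the knockout in gels (median -0.25), and 2 rose and 9 fell in monolayers (median -0.44). FHL1, a LIM protein of muscle, had 11.2 and 8.56 CPM in knockout gels, 22.9 and 22.7 CPM in control gels, 18.1 and 16.8 CPM in knockout monolayers, and 33.4 and 37.0 CPM in control monolayers. It fell with the knockout by 1.21 ± 0.11 in gels and by 1.01 ± 0.09 in monolayers (adjusted p = 9.31e-11 and 3.89e-10). SVIL, supervillin of the cortex, fell by 0.56 in gels and 0.54 in monolayers (adjusted p = 1.76e-09 and 1.11e-08). CCN2, a secreted matricellular protein and also a YAP target, had 727 and 754 CPM in knockout gels, 918 and 915 CPM in control gels, 324 and 315 CPM in knockout monolayers, and 552 and 563 CPM in control monolayers. Its knockout effect was -0.31 in gels and -0.80 in monolayers (adjusted p = 1.51e-06 and 1.39e-15). CCN1, its relative, rose in gels with the knockout (0.18, adjusted p = 0.00276) and fell in monolayers (-0.54, adjusted p = 4.73e-11). ANKRD1, another target, passed only in monolayers (-0.57, adjusted p = 1.09e-11), with -0.05 in gels (adjusted p = 0.514). ACTG2, a smooth muscle actin, rose in both, by 1.49 and 1.17 (adjusted p = 0.00204 and 0.00562), at 1.75 and 1.59 CPM in knockout gels, 0.528 and 0.658 CPM in control gels, 2.60 and 1.85 CPM in knockout monolayers, and 0.966 and 0.993 CPM in control monolayers. Like ACTA2, ACTG2 rests on few counts a library, which limits these comparisons. In gels against monolayers the list was split, with 4 rising and 3 falling in knockout cells and 5 and 2 in control cells, the rises led by CCN2 (1.21 and 0.72 in knockout and control cells), CCN1 (1.25 and 0.52) and AMOTL2 (0.73 and 0.69).

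The 11 ternary complex factors and immediate-early SRF targets are the other arm of SRF control. In gels 3 rose and 2 fell with the knockout (median 0.02), and in monolayers 5 rose (median 0.25). JUNB, an AP-1 subunit, rose by 0.45 in monolayers (adjusted p = 8.13e-08), with 0.02 in gels, and EGR1, a zinc finger factor, rose by 0.15 in gels and 0.48 in monolayers (adjusted p = 0.034 and 1.33e-07). ELK1, a ternary complex factor, rose by 0.25 in both cultures (adjusted p = 0.00298 in gels and 0.00398 in monolayers), and ELK3 fell in gels (-0.26, adjusted p = 0.00018). The knockout effect was lower in gels than in monolayers for 5 of the 11 by the interaction test, EGR1, ELK3, FOS, IER2 and JUNB. In gels against monolayers ELK4 fell in control cells (-0.28, adjusted p = 0.00067), while 6 genes rose in knockout cells and 8 in control cells, FOS by 6.09 and 6.48 on the log2 scale, with 649 and 655 CPM in knockout gels, 687 and 707 CPM in control gels, 9.97 and 9.22 CPM in knockout monolayers, and 7.85 and 7.69 CPM in control monolayers. FOS, FOSB, JUNB, EGR1 and IER2 of this list are also among the dissociation genes, and how far the digestion set their level in gels was not tested.

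The Arp2/3 complex nucleates branched filaments when WAVE activates it. Of 20 tested genes 1 fell with the knockout in gels (WASF2, -0.16, adjusted p = 0.0158), and 2 rose and 2 fell in monolayers, among them ARPC1A (0.28, adjusted p = 0.00779) and ABI2 (-0.24, adjusted p = 0.00208). In gels against monolayers 4 rose in knockout cells and 5 in control cells, as ARPC4 did by 0.23 and 0.37 (adjusted p = 0.000227 and 4.49e-07) and ACTR3 by 0.22 in each, while ABI2 fell in control cells (-0.27, adjusted p = 0.000458). That is 20% of the list in knockout cells and 30% in control cells, against 38% and 26.7% of all tested genes. Formins nucleate unbranched filaments. Of 12 tested, 3 rose and 3 fell with the knockout in gels, DIAPH1 by 0.24 and FMNL1 by -0.40 (adjusted p = 0.000153 and 9.18e-08), and 3 rose and 5 fell in monolayers, DIAPH3 by -0.36 and FMNL2 by -0.37 (adjusted p = 2.45e-06 and 1.74e-05). FHOD3 fell in gels against monolayers, by 0.78 in knockout and 0.47 in control cells (adjusted p = 6.69e-10 and 2.21e-05).

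Of 18 other monomer, capping and severing proteins 3 fell with the knockout in gels, TWF2 by 0.36, GSN by 0.29 and CFL2 by 0.25 (adjusted p = 2.64e-05, 0.000503 and 0.0017). In monolayers 3 rose and 2 fell, among them CAPZB (0.19, adjusted p = 0.00466) and CFL2 (-0.23, adjusted p = 0.00529). The list thus passed at 16.7% in gels and 27.8% in monolayers, against 23.9% and 19.2% of all tested genes. Of 23 other focal adhesion proteins 2 rose and 10 fell with the knockout in gels, and 2 rose and 4 fell in monolayers. These are 52.2% and 26.1% of the list, against 23.9% and 19.2% of all tested genes. TNS4, a tensin, fell by 1.33 and 0.67 (adjusted p = 1.23e-06 and 0.00119), SORBS2 by 0.64 in gels (adjusted p = 2.21e-06), and BCAR1, the p130Cas scaffold, rose by 0.20 and 0.31 (adjusted p = 0.00174 and 7.32e-06). ENAH, which lengthens filaments, fell in monolayers (-0.35, adjusted p = 3.34e-05). FERMT1, a kindlin that activates integrins, was higher in gels of control cells by 0.56 (adjusted p = 3.67e-07).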

How the data were processed

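Polyadenylated RNA was sequenced from stranded libraries. The values are whole-number counts for each gene in 8 libraries, as deposited. The authors made them with FastQC 0.11.9, STAR 2.7.9a, featureCounts and R 4.1.1 on hg38, per the submitters' processing notes. For the counting, annotation and strand setting are not given in the labels or notes, so near-identical or overlapping genes are uncertain. Counts were analysed with edgeR 4.0.16 (R 4.3.3) by 1 quasi-likelihood fit over the 4 groups, with TMM factors and edgeR's filter at a minimum count of 10, which kept 15568 genes and 99.9% of counts. Adjusted p-values are Benjamini-Hochberg values over all tested genes. The common biological coefficient of variation was 4.03%, on 4 residual degrees of freedom among libraries. Each gene's test also drew on the spread of other genes, which gave a median of 34.3 total degrees of freedom. Gene positions and exon lengths come from the GENCODE annotation on hg38, and sequences from RefSeq. The test was also run on simulated counts, drawn with the common dispersion of the real fit. Of changes given to randomly drawn genes in knockout monolayers, it recovered 30.3% at 1.2-fold, 64.2% at 1.5-fold and 92.3% at 2-fold. Small changes that did not pass are thus not shown to be absent.

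The members and lists were chosen with earlier results of these data known. The genes always described were ACTA2, ACTB, ACTG1, SRF, MRTFA, MRTFB and the targeted ETV genes. The others were, per comparison, the 5 members with the smallest adjusted p in each direction, the 5 of either sign in the interaction, the largest change per role and up to 2 genes per other list. Values for further members, and for FOS, JUNB, EGR1, CCN1, ANKRD1, ELK1, ELK3 and other list genes beyond that number, were chosen after they were seen. Alternatives were RLE, upper-quartile and no scaling factors, TMM factors without the members, no filter, DESeq2 1.42.0, only the groups compared, a replicate block, offsets for exon length and GC content, and leaving out each library. The results of 1 list of cytoskeletal regulators are not reported here.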

Additional observations from a re-analysis of the deposited data

Results flagged for a closer look

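For 7 members the knockout effect in gels differed from that in monolayers by edgeR's interaction test, given here as the log2 effect in gels minus that in monolayers. The difference was 0.70 for FLNC, 0.46 for MRTFB, 0.40 for MYH10 and 0.34 for LIMA1. It was -0.50 for FSCN1, -0.40 for PDLIM7 and -0.33 for TAGLN2. The label of the control monolayers does not name Cas9 while that of the control gels does, so this difference between the controls and the effect of the culture cannot be told apart.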

How the results depend on the processing

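None of the 90 called member values changed sign in any alternative. The calls kept were 90 with TMM factors computed without the members, 86 with RLE, 84 in DESeq2, 82 with upper-quartile factors, 81 with library size alone, 81 without the filter, 77 with length and GC offsets, 74 of 83 with only the groups compared, and 73 to 83 without 1 library. With the replicate block all 90 were kept, with 10 members higher and 12 lower for the knockout in monolayers, 8 and 9 in gels, 14 and 10 for gels in knockout cells, 16 and 7 in control cells, and 4 and 4 in the interaction. Over all tested genes, deviations of same-numbered libraries correlated at -0.0629 to 0.0817 between groups. Such correlations do not test for a batch or pairing that touches few genes.

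The number of members higher with the knockout in monolayers was 5 with length and GC offsets, against 10, and 3 to 10 without 1 library. In gels it was 3 to 9 without 1 library. The number higher in gels of control cells was 8 with library size alone, against 14, and 9 to 20 without 1 library. In the pairwise comparisons of ACTA2, ACTB, ACTG1, SRF, MRTFA and MRTFB, these values that had not passed changed sign, while other members that had not passed were not followed. Without 1 library the knockout difference in monolayers ranged from -0.019 to 0.10 for SRF and from -0.30 to 0.10 for ACTA2. For ACTA2 it ranged from -0.27 to 0.055 in gels, and gels minus monolayers in knockout cells from -0.37 to 0.038. MRTFB in that comparison was -0.0067 with library size alone and -0.020 with length and GC offsets. The cause was not tested. ACTA2 rests on 30 to 53 counts a library, which limits what its comparisons can show.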
